A study of Homo sapiens
Mus musculus and Homo sapiens with 12 samples.

Results

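Heterokaryons are fused cells that keep the nuclei of both parents apart, here a D3 mouse embryonic stem cell and a fibroblast of the human lung line MRC5. A set of 6 human genes, TRNP1, NFIX, CHRM2, FZD1, DRP2 and ZNF469, was present in fibroblasts alone and beside mouse cells and was low on every day after fusion. They were chosen by their values. Each stood at 5 or more in unfused fibroblast replicate 2 and in both co-culture libraries, the 3 reference libraries, and its mean at day 1, day 2 and day 3 was each 3-fold or more below the smallest of those 3 values. Of 5556 human genes that the tables reach in full, 1102 met the floor of 5 and 7 also met the fold, which is 0.635% of them. The other 1, BDKRB1, was left out by its symbol; such symbols (collagens, metalloproteinases, integrins, Wnt ligands and others) took the 1102 genes to 1066.

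The groups were heterokaryons of D3 and MRC5 cells at day 1, day 2 and day 3 after fusion (2 libraries each), co-cultures of D3 and MRC5 cells harvested together without fusion (2 libraries), unfused human fibroblasts (2 usable libraries) and 1 homokaryon library, made by fusing fibroblasts to fibroblasts, both human. The labels name MRC5 for the heterokaryons and co-cultures, and only human fibroblasts for the other groups. Heterokaryons were isolated by FACS, per the labels' protocol, and no sort is described for the other groups, so sorting and fusion cannot be told apart. The labels name no transgene, drug or age. They do not tell if replicates came from separate cultures, and the p-values below therefore describe the spread among libraries, which may be technical. Levels are called RPKM, reads scaled to transcript length and to the library's reads, although this unit is inferred. In these bulk libraries fewer cells with a transcript and less transcript per cell cannot be told apart.

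Fibroblasts hold their identity with transcription factors, receptors for signals from neighbouring cells, and a secreted matrix. In a heterokaryon the fibroblast nucleus shares a cytoplasm with the stem cell nucleus without dividing, so changes in its transcripts can be read before any cell division. The 6 genes encode proteins of different kinds. TRNP1 and NFIX encode nuclear proteins, and ZNF469 encodes a very large zinc finger protein. CHRM2 and FZD1 encode receptors with 7 membrane passes, and DRP2 encodes a membrane-associated relative of dystrophin.

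The coding sequences of these genes differ widely in base composition, and GC content can affect how well a fragment is sequenced. The first 60 coding bases are shown 5′ to 3′ for the 3 members richest in GC and, for contrast, for CHRM2, the poorest. They are from the GENCODE 29 transcripts (GRCh38) linked to the RefSeq accessions of the tables, and capitals mark G and C.
TRNP1: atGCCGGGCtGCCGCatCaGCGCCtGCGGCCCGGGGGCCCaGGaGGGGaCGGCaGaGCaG
ZNF469: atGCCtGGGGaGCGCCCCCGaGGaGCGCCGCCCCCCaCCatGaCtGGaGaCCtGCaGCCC
FZD1: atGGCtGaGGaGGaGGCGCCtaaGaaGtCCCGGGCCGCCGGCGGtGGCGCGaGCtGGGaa
CHRM2: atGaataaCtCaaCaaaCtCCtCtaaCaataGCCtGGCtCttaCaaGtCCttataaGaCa
G and C made up 78.3% of these bases in TRNP1, 75% in ZNF469, 71.7% in FZD1 and 36.7% in CHRM2.

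TRNP1, a nuclear protein known for its part in the expansion of neural progenitors, was the most abundant of the 6. It stood at 126.7 and 126.1 RPKM in unfused fibroblast replicates 1 and 2 and at 119 and 90.2 in co-culture. The heterokaryon libraries had 10.3 and 10.5 on day 1, 26.2 and 16.9 on day 2, and 27.5 and 6.39 on day 3. All 6 heterokaryon libraries lay below all 4 libraries of unfused cells, and the closest pair of values was 3.28-fold apart. The day means were 10.4 ± 0.185, 21.5 ± 6.63 and 16.9 ± 14.9 (SD, n = 2), so day 1 had the lowest mean and day 3 had a spread almost as large as its mean. The smallest reference value was 8.68, 4.18 and 5.32 times the means of day 1, day 2 and day 3. The homokaryon library had 21.3, which lies among the heterokaryon values.

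NFIX, a transcription factor of the nuclear factor I family that acts in muscle and brain development, was at 60.4 RPKM in unfused fibroblast replicate 2 and at 56.6 and 71.4 in co-culture. Day 1 had 14.7 and 10.2, day 2 had 7.58 and 9.72, and day 3 had 15.1 and 14.6. The heterokaryon and reference libraries did not overlap, and the closest values were 3.76-fold apart. The lowest mean was that of day 2, 8.65 ± 1.51, against 12.5 ± 3.19 at day 1 and 14.8 ± 0.353 at day 3 (SD, n = 2). The homokaryon library had 55.6, close to the 3 reference values and 3.69 times the highest heterokaryon library. Of 12 coding accessions now given to NFIX, the tables list 1, so these values describe that transcript. The table of unfused fibroblast replicate 1 does not reach it. The other 3 genes of the family are not reached in full by every table and were not analysed here.

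ZNF469, whose loss causes brittle cornea syndrome, a disorder of the connective tissue, was the least abundant member. It stood at 5.13 and 5.77 RPKM in unfused fibroblast replicates 1 and 2, and co-culture had 5.06 and 9.96. Heterokaryons had 0.567 and 0.341 on day 1, 0.853 and 1.31 on day 2, and 2.01 and 1.28 on day 3. The 6 heterokaryon values lay below all 4 unfused values, by 2.52-fold at the closest. Both day 3 values were above both day 1 values, while day 2 overlapped day 3. For this gene and for CHRM2, the table of fibroblast replicate 1 reaches the transcripts that any table lists, but not every coding accession now given to the gene. The homokaryon library had 4.69, just below the smallest reference value.

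CHRM2, the M2 muscarinic receptor, answers acetylcholine through an inhibitory G protein and is known from heart, airway smooth muscle and lung fibroblasts. It was at 21.6 and 19.3 RPKM in unfused fibroblast replicates 1 and 2, and co-culture had 10.3 and 15.1. Heterokaryons had 0.107 and 3.81 on day 1 and 1.002 and 0.824 on day 3, and of the day 2 libraries the first does not list it and the second had 0.121. The second day 1 library stood apart from the other 5 heterokaryon libraries, and it alone was less than 3-fold below the smallest reference, at 2.70-fold. The homokaryon library had 13.2, between both co-culture values.

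The CHRM2 level is a sum over 8 listed transcripts that differ in their untranslated exons, so their reads are hard to assign. In 4 of the 5 heterokaryon libraries that list it, the highest transcript held 13.3% of the sum, and in the other, the second of day 3, 32.6%. In unfused fibroblast replicate 2 a single transcript held 85.1% of the sum, against 14.8% for the highest one in replicate 1. Values of single CHRM2 transcripts are therefore not compared here. Of the other muscarinic receptors, the tables reach CHRM1, CHRM3 and CHRM4 in full; CHRM1 was unlisted everywhere, and the highest heterokaryon value was 2.72 for CHRM3 and 2.72 for CHRM4, with neither above 0.701 in a reference library.

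FZD1, a frizzled receptor for Wnt ligands, was at 8.80 RPKM in unfused fibroblast replicate 2 and at 14.4 and 16.1 in co-culture. Heterokaryons had 2.82 and 2.23 on day 1, 2.89 and 2.77 on day 2, and 2.71 and 1.85 on day 3. All 6 values lay between 1.85 and 2.89, with no order of the days beyond their spread. The homokaryon library, at 5.02, lay between the heterokaryon and reference values. Co-culture stood higher than fibroblasts alone, with a mean 1.73 times the value of replicate 2.

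Relatives of FZD1 showed other patterns. Of 10 frizzled genes the tables reach 6 in full, and FZD1, FZD2 and FZD7 met the floor of 5 in the reference libraries. FZD2 was between 6.63 and 11.9 in heterokaryons, against 14.1 and 22.4 in co-culture and 31.8 in unfused fibroblast replicate 2, so its groups did not overlap but were less than 3-fold apart. FZD7 overlapped, with 6.22 to 18.5 in heterokaryons, 13.4 and 20.5 in co-culture and 39.9 in the fibroblasts. FZD5 was at 1.15 to 3.66 in heterokaryons and at 0.260 or less in each reference library. These relatives were chosen by symbol after the values were seen.

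DRP2, a relative of dystrophin that joins the dystroglycan complex of Schwann cells, was at 8.68 RPKM in unfused fibroblast replicate 2 and at 15.6 and 15.7 in co-culture. Day 1 had 0.530 and 2.20, day 2 had 2.60 and 2.53, and day 3 had 1.61 and 1.99. The first day 1 library was the lowest, and the groups were 3.33-fold apart at the closest. The homokaryon library had 5.27, the sum of 2.69 for a transcript listed in no other library that reaches it and 2.58 for the one listed in the heterokaryon and reference libraries. On the shared transcript alone the homokaryon level lay just under the highest heterokaryon value. SGCB, a sarcoglycan of the dystrophin complex, overlapped between the groups, at 22.9 to 30.8 in heterokaryons and 23.6, 24.2 and 29.7 in the reference libraries.

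**Figure D1:**
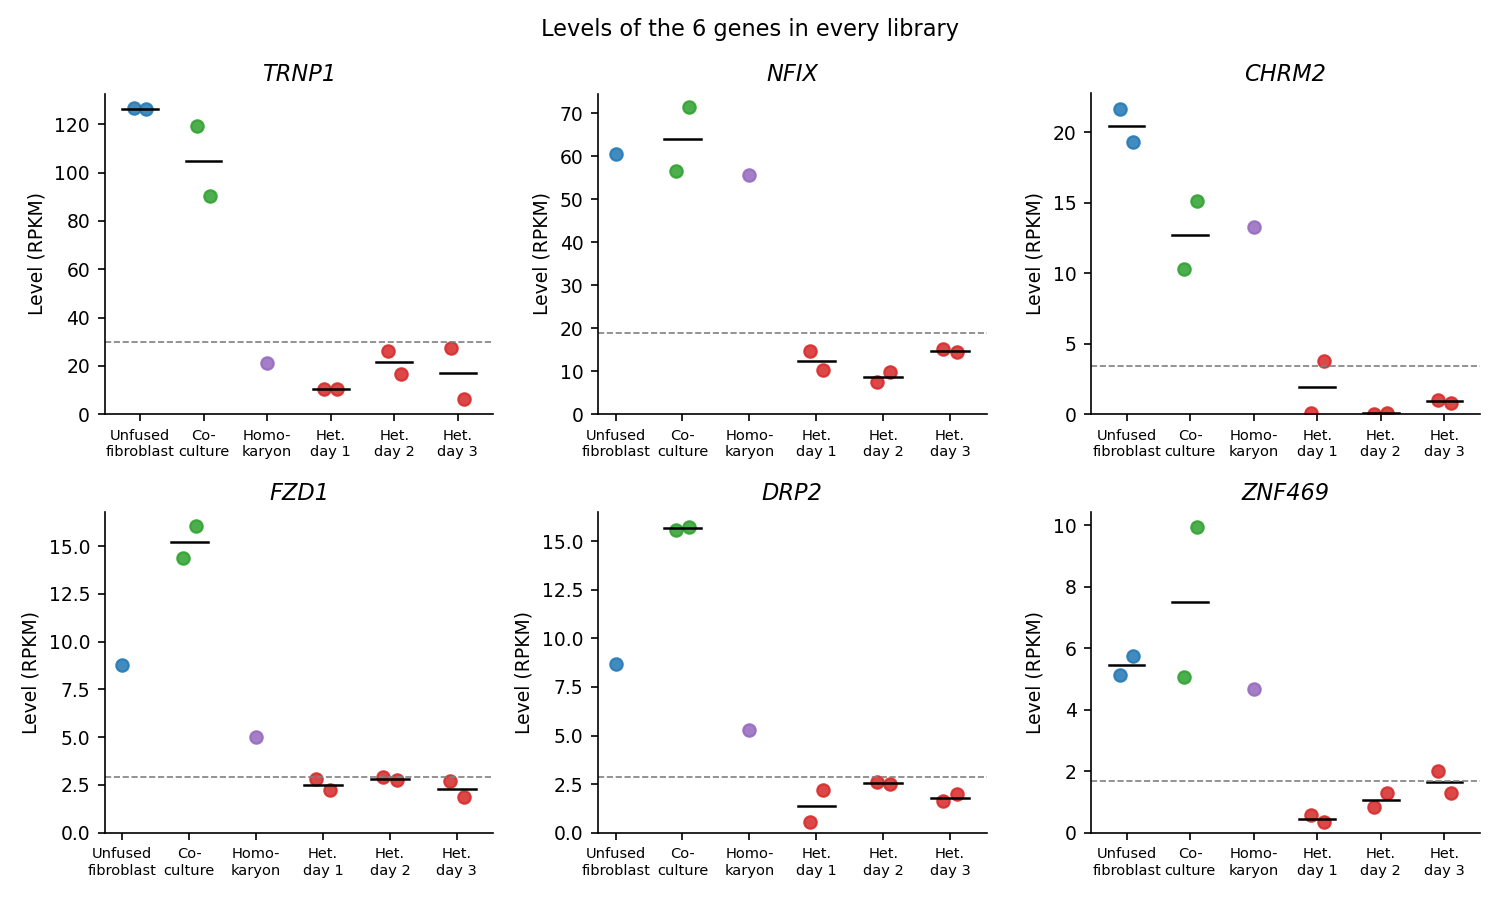
Level of each of the 6 genes in RPKM (vertical axis, from 0) in every library that reaches it (points), by group, with a bar at the mean of 2 libraries; the dashed line is the smallest reference value divided by 3. Heterokaryon points lie at or under the dashed line except for 1 value of CHRM2 and 1 of ZNF469, while the homokaryon point is under it only for TRNP1.

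Across the set, 34 of the 36 heterokaryon values were 3-fold or more below the smallest reference, the exceptions being the second CHRM2 library of day 1 and the first ZNF469 library of day 3. Of the 36, the CHRM2 value of the first day 2 library is a missing entry taken as 0, which does not show absence; of the 35 listed values 33 met the fold. All listed heterokaryon values were below every reference value. The rule makes this likely, its share over all genes was not counted, and nothing is read from it. Day 1 had the lowest mean for TRNP1, DRP2 and ZNF469, day 2 for NFIX and, with that missing entry, CHRM2, and day 3 for FZD1. The fall itself follows from the way the genes were chosen and carries no test. The smallest reference was a co-culture library for TRNP1, NFIX, CHRM2 and ZNF469, and the fibroblast library for FZD1 and DRP2.

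The threshold divides a continuous range. Just inside it were ZNF469 and FZD1, whose highest day mean was 0.325 and 0.322 of the smallest reference. Just outside, among genes not left out by symbol, were ARHGEF28, a guanine nucleotide exchange factor, at 0.335, and PLAUR, the urokinase receptor, at 0.336. PHLDA2, an imprinted gene, was at 0.359, DNLZ, a partner of a mitochondrial chaperone, at 0.360, and MGAT5, an enzyme that branches N-glycans, at 0.361. MGAT5 had 19.1 to 26.6 RPKM in heterokaryons and 70.7, 68.4 and 67.2 in the reference libraries, an even separation of 2.53-fold at the closest. PLAUR had 23.1 to 57.1 against 140.0, 139 and 227. For PHLDA2 the heterokaryon libraries ran from 2.29 to 28.8, both extremes on day 1, against 43.3 to 63.4. ARHGEF28 had 0.732 to 5.38 against 10.1, 11.3 and 12.2, and DNLZ had 0.395 to 4.06 against 7.51, 19.9 and 10.9. BDKRB1, a bradykinin receptor left out by its symbol, had 4.78 to 31.4 against 72.1, 83.3 and 95.3. In these 6 genes too, no heterokaryon library reached a reference value. They were also picked by their low ratios, so nothing is read from this. The share of all genes without overlap was not counted.

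**Figure D2:**
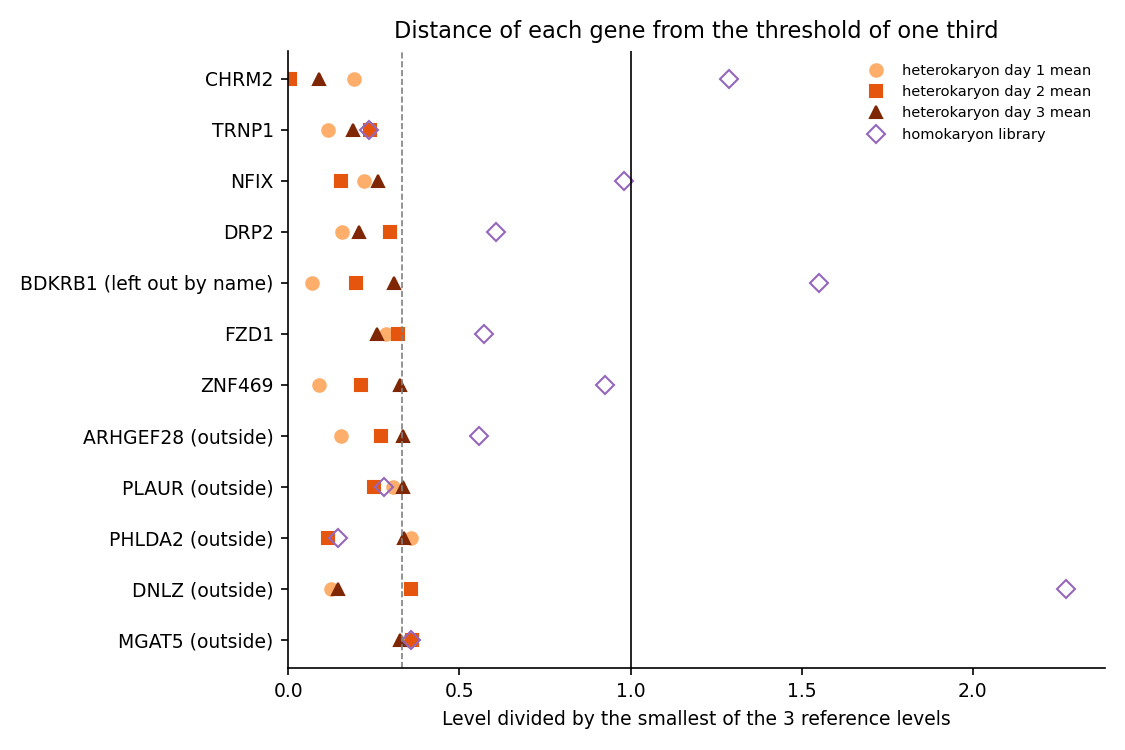
Mean of each heterokaryon day (filled symbols) and the homokaryon library (open diamonds), divided by the smallest of the 3 reference levels (horizontal axis). Shown are the 6 genes, BDKRB1 and the 5 genes just outside that were not left out by symbol. The dashed line is at 1 divided by 3 and the solid line at 1. Homokaryon diamonds of CHRM2 and NFIX sit at 1.29 and 0.981, and that of TRNP1 at 0.237.

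The homokaryon library was not used in choosing the genes and shows their level in fibroblasts fused without mouse cells. TRNP1 was 3-fold or more below the smallest reference there, and the other 5 were not, so 1 of 6 members met the fold that 49 of all 1102 genes (4.45%) met. Relative to the smallest reference, the homokaryon value was 1.29 for CHRM2, 0.981 for NFIX, 0.926 for ZNF469, 0.607 for DRP2, 0.571 for FZD1 and 0.237 for TRNP1. The median was 0.767 over the members and 1.11 over all 1102 genes. On the transcripts that a reference library lists, a choice made after seeing the data, DRP2 had a ratio of 0.297 and also met the fold, so 2 of 6 members did, against 52 of 1102 genes (4.72%). For NFIX, CHRM2, ZNF469 and FZD1 the homokaryon value was above the highest heterokaryon library on either count, by 1.74-fold for FZD1 up to 3.69-fold for NFIX. The rule chose genes low in the heterokaryons, so this order is in part built in. Its share over all genes was not counted, and nothing is read from it. With 1 library the homokaryon values have no replicate check and no test. Against the mean of the co-culture libraries alone, FZD1 also met the fold, but a larger share of all genes met it there too. The labels give no day for the homokaryon sample, so its time after fusion cannot be matched to a heterokaryon day.

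**Figure D3:**
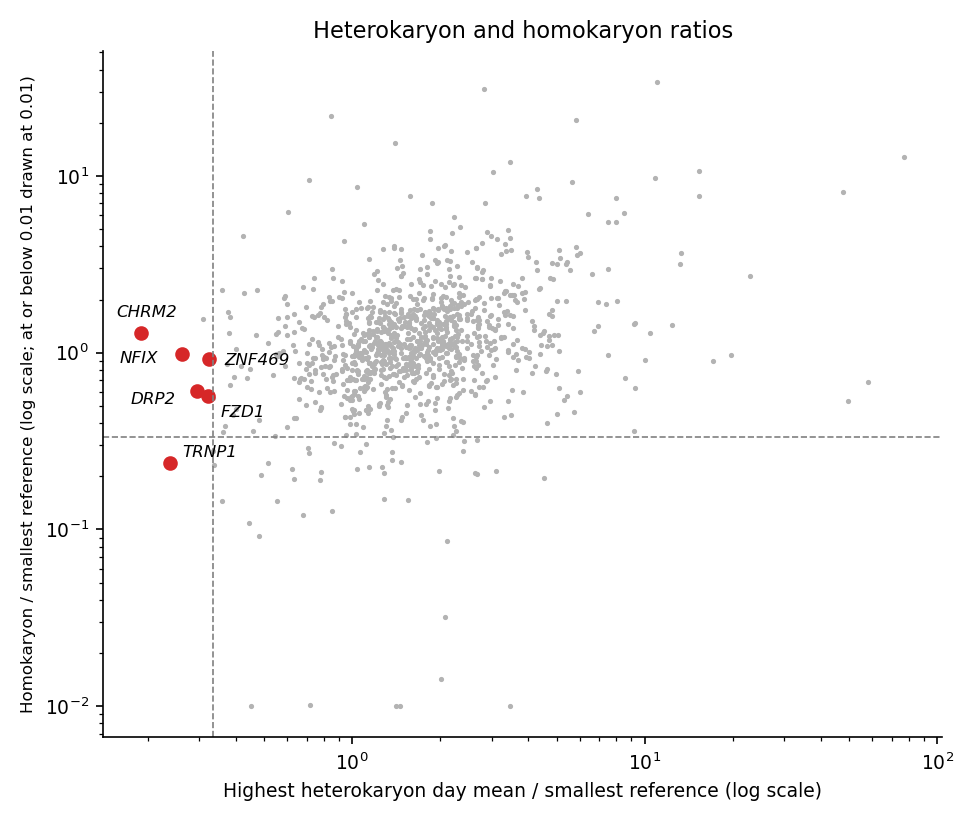
Ratio of the homokaryon library to the smallest reference (vertical log axis) against the ratio of the highest heterokaryon day mean to it (horizontal log axis) for the 1102 genes at 5 or more in the reference libraries; red points are the 6 members and dashed lines mark 1 divided by 3. The members are at the left by their choice, and TRNP1 is the member that also lies under the horizontal line.

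The differences between days are given as a description, since the rule capped the mean of each day and so removed genes that rose past that limit. No member was called with limma in 15 comparisons between days, and none had an unadjusted p under 0.05, but nothing is read from these counts. Day 2 against day 1 included 4 members, where 0.321% of 2183 genes were called and 436 had an unadjusted p under 0.05. Day 3 against day 2 included 5, where 0% of 2246 genes were called and 187 had an unadjusted p under 0.05. Day 3 against day 1 included all 6, where 1.32% of 2650 genes were called and 544 had an unadjusted p under 0.05. CHRM2 and ZNF469 at day 2 against day 1, and CHRM2 at day 3 against day 2, failed the filter on low values.

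On the scale of log2(RPKM + 1), TRNP1 was higher by 0.95 at day 2 than at day 1 (SE 0.55), and ZNF469 was higher by 0.86 at day 3 than at day 1 (SE 0.54). NFIX was higher by 0.72 at day 3 than at day 2 (SE 0.35). The smallest of the 15 differences was that of FZD1 between day 1 and day 3, -0.11 (SE 0.49). Equal levels on the 3 days are not shown by these values.

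Co-culture and unfused fibroblasts give the level in cells that were not fused, with and without mouse cells. Both groups entered the rule, which favours genes that are alike in them, so their difference is a description too. TRNP1 is the member that both usable fibroblast tables reach in full. It was not called with limma, where 2.92% of 377 genes were, and its log2(RPKM + 1) in co-culture differed from that in fibroblasts by -0.28 (SE 0.57). When accessions that no table lists were set aside, a choice made after seeing the data, the difference was -0.67 for CHRM2 (SE 0.69) and 0.34 for ZNF469 (SE 0.47). FZD1 and DRP2 had co-culture means of 15.2 ± 1.21 and 15.7 ± 0.108 (SD, n = 2), which are 1.73 and 1.80 times the value of the 1 fibroblast library that reaches them.

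Composition of the coding sequence was compared between the members and the 1092 genes of the 1102 that have a linked transcript. Coding GC was 79.7% for TRNP1, above 99.9% of these genes, 67.2% for ZNF469, above 96.3%, and 65.5% for FZD1, above 93.8%. NFIX had 60.02%, DRP2 54.5% and CHRM2 46.9%, against a median of 55.0%. Among the 273 genes highest in coding GC 3 passed the threshold, or 1.10%, and among the other 819 genes 4 passed, BDKRB1 included. The shift with GC differed among the libraries, also within day 3. Over all these genes, Spearman's rank correlation of coding GC with the log2 ratio to the references was -0.0785 at day 1, -0.319 at day 2 and -0.00447 at day 3, and -0.0801 in the homokaryon library. The single libraries had -0.0747 and -0.0282 on day 1, -0.288 and -0.303 on day 2, and -0.206 and 0.190 on day 3. With 2 libraries each, a difference by day cannot be told apart from one between libraries. These are descriptions across genes that share the same libraries, and the part of GC content in the low values of TRNP1, ZNF469 and FZD1 was not tested.

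**Figure D4:**
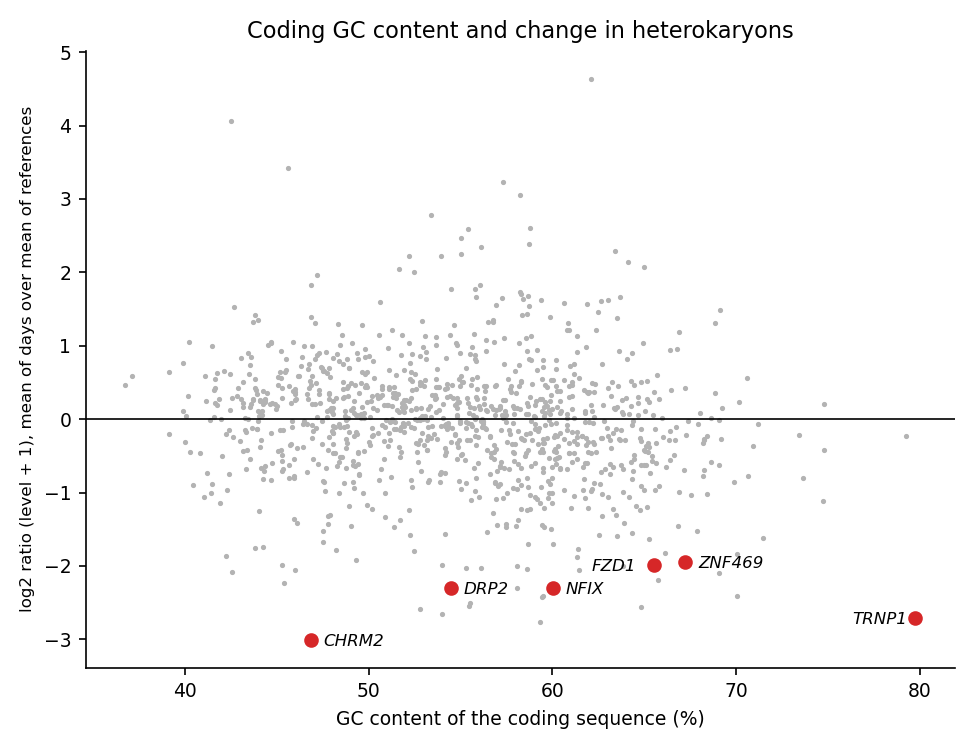
Log2 ratio of the mean of the 3 heterokaryon day means to the mean of the 3 reference libraries, each with 1 RPKM added (vertical axis), against the GC content of the coding sequence in percent (horizontal axis) for 1092 genes, with the 6 members in red. The members run from CHRM2 at 46.9% to TRNP1 at 79.7%.

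Length also varied among the members. The ZNF469 transcript is 13203 bases long, longer than 99.2% of the 1092 genes, and those of DRP2 and FZD1 are 7277 and 6963 bases. NFIX, CHRM2 and TRNP1 have 3143, 2571 and 1958 bases, on both sides of the median of 2519. The untranslated 3′ end is 4505 bases in FZD1 and 3879 in DRP2, longer than in 95.3% and 92.9% of genes, and shorter in CHRM2, at 761 bases, near the median of 726.

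The libraries held fibroblast transcripts throughout. Of 20 fibroblast markers 11 are reached in full, and of the 8 at 5 or more in the reference libraries none met the fold, which 0.635% of all 1102 genes met, so nothing is read from that count. The lowest ratio of a highest day mean to the smallest reference was 0.932, for VIM, and their median log2 ratio to the references was -0.29. COL1A1, the main chain of collagen I, was at 1576 to 3000 RPKM in heterokaryons and 2419, 2428 and 2456 in the reference libraries. Its log2 ratio to the references was 0.0314, and only COL6A1, at 0.117, was higher among the 8. The lowest were PDGFRB at -0.899, COL5A1 at -0.702 and VIM at -0.522, and COL3A1, FBN1 and COL1A2 lay between. LUM and MFAP5, also fibroblast markers, were at 0.785 or less in each reference library. Of the endothelial markers 5 were reached, with sums of 5.71 to 7.22 in the reference libraries and 1.29 to 5.44 in heterokaryons. TEK carried the sum in the reference libraries, at 5.32 to 6.55, and was at 1.03 to 3.49 in heterokaryons and 24.3 in the homokaryon library. CDH5 was unlisted in the reference libraries and had 1.71 and 0.222 in 2 heterokaryon libraries, and PECAM1 and KDR were at 0.160 or less in the references and at up to 0.480 and 0.454 in heterokaryons. The haematopoietic markers summed to 0.423 or less in the reference libraries and to 0 to 4.15 in heterokaryons, the highest from SPI1 in the first day 1 library, with CD3E unlisted throughout. The 4 epithelial markers reached had sums of 109 to 595 in heterokaryons against 5.94 to 20.3 in the reference libraries. TEK is lower and the epithelial sum higher in the heterokaryons, where the 6 genes are low, and the part of other cells in the result was not tested. Over all 1102 genes, the median ratio of a day mean to the mean of the references was 0.965 at day 1, 0.987 at day 2 and 0.937 at day 3.

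No gene of the other lists met the fold, but with 0.635% of all genes meeting it lists of this size say little. They held 8 cholesterol synthesis genes at 5 or more in the reference libraries, 6 growth factors and cytokines, 5 adhesion and guidance genes, 4 mesenchymal transcription factors, 3 smooth muscle genes and 4 housekeeping genes. In the same order, the lowest such ratio was 0.901 for MVK, 0.713 for IL11, 0.863 for CDH11, 0.679 for SALL1, 1.06 for CNN1 and 1.12 for GAPDH. Of the prostaglandin genes 6 were reached and none met the floor, and the same held for 3 adipocyte markers. SOX2, the pluripotency marker that was reached, was unlisted in every library.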

How the data were processed

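PolyA RNA was sequenced in 12 samples, and the authors deposited 1 value per RefSeq transcript accession and library. The deposited values are taken as RPKM, scaled by the authors to length and depth, an inference from their form since no header names the unit. Read totals, and so depth, are unknown. The submitters' processing notes name the builds hg19 and mm10; the aligner was not given in the sources used here. Each of 11 tables keeps 10000 distinct values in accession order and lists no 0, so each reaches a last accession of its own. A human accession missing before that end was taken as 0, and genes with a coding accession past it were left out. ACTB, active in every cell, is listed in none of these tables, so a missing value does not show absence. The table of unfused fibroblast replicate 3 holds 8070 accessions, none in the human RefSeq table, and was not used; in replicate 1, 12140 of 17527 accessions are outside the human tables. Coding transcripts were summed per gene with the human RefSeq table, and 130 accessions it no longer holds were named through GENCODE 29.

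Comparisons used limma 3.58.1 under R 4.3.3 (lmFit, eBayes with trend) on log2(value + 1), with a pseudocount of 1, keeping genes whose level reached 1 in 2 or more of the libraries compared. P-values were adjusted by Benjamini-Hochberg over all genes tested and called under 0.05. The 5 replicated groups shared 1 estimate of spread. The fit was tested on simulated data, with large changes in genes of higher mean level. That setting differs from the small differences between days and the low levels of most members, so it does not bear on them. The members, lists and tests were chosen with earlier results of these data known. Every member was named, with its value in each library. Beside them were the 5 genes just outside the threshold that were not left out by symbol, and BDKRB1, which was. Promoter motifs were not analysed here. Transcript sequences came from GENCODE 29, linked by accession. The alternatives were other thresholds, floors, pseudocounts, filters and scalings, a replicate block, a fit of only 2 groups, libraries left out in turn, and, chosen after seeing the data, coverage judged only by listed accessions and the homokaryon level over accessions that a reference library lists.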

Additional observations from a re-analysis of the deposited data

How the results depend on the processing

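The number of genes that met the rule was 6 as reported. It was 32 at a 2-fold limit and 2 at a 4-fold limit, 3 with a floor of 10 and 12 with quantile normalization. Leaving out 1 library gave 5 to 26 genes: 26 without unfused fibroblast replicate 2, and 12 or 10 when the first or the second co-culture library was left out, with all 6 members among them each time; the rule then has fewer values to meet. TRNP1 met all 16 alternatives, NFIX 15, CHRM2, FZD1 and DRP2 14 each, and ZNF469 12. No member can be lost at the 2-fold limit, with a floor of 2 or without a reference library. These tallies include those outcomes, which were fixed in advance. CHRM2 was lost without heterokaryon day 1 replicate 1, and ZNF469 without heterokaryon day 3 replicate 2. The homokaryon count was 1 as reported and 1 with each reference left out. It was 2 against the mean of the co-culture libraries alone. The count was also 2 on the transcripts that a reference library lists, chosen after seeing the data, where 4.72% of all genes met it. In both settings with a count of 2, the share of all genes that met the fold was higher than as reported. The choice of members bears on the limma comparisons, and nothing is read from their counts: no member was called in any of 47 alternative fits of the 4 limma comparisons, where the smallest adjusted p was 0.091, for TRNP1 at day 3 against day 1 without heterokaryon day 3 replicate 2; over the alternatives of that comparison the smallest p of a member ranged from 0.091 to 0.83. With the replicate block 0 members were called in each comparison. Of all genes, 0 of 2183 were called at day 2 against day 1 and 0 of 2246 at day 3 against day 2. At day 3 against day 1 0 of 2650 were, and in co-culture against fibroblasts 6 of 377, with 1 member tested. Same-numbered libraries deviated together with correlations from -0.101 to 0.155. The main fit did not take the numbers as pairs because the labels do not say what a replicate number marks. The genes called over the whole table ranged over the alternatives from 0 to 14 at day 2 against day 1 (7 as reported), 0 to 13 at day 3 against day 2 (0), 0 to 55 at day 3 against day 1 (35) and 0 to 30 in co-culture against fibroblasts (11). Read totals are not given, so the precision of values near 0, as in CHRM2 and ZNF469, is not known.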
